A study of Mus musculus with 2 samples.

Results

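Genes for subunits of glutamate receptors were examined in a list of C-to-U sites from neuronal nuclei of the mouse cortex. The 10 members were chosen by gene name: Gria1, Gria2 and Gria3 (AMPA receptors), Grin1, Grin2a, Grin2b and Grin2c (NMDA receptors), Grik5 (kainate receptors), and Grm3 and Grm5 (metabotropic receptors). Of these 10 genes, 7 carried sites, 34 in all, out of 17755 sites in 6929 genes of the whole list. Sites were listed for 28.2% of all protein-coding genes and 50.1% of those spanning 100 kb or more. Of 14 further glutamate receptor genes, 3 (21.4%) had a site. The 10 genes were chosen with earlier results of these data known, so their own share does not describe the family. Gria3, Grin1 and Grin2a carried 0 sites. The list came from 1 group of 2 libraries. The mice had the genotype APOBEC1-YTH and received tamoxifen, 20 mg/kg each 24 hours for 5 days from an age of 10 weeks. Cortex was collected 7 days after dosing ended. Its nuclei, fixed in 50% ethanol, were stained with an antibody to NeuN and flow-sorted. The labels give neither the promoter that drives the transgene nor the number of mice behind each library.

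APOBEC1-YTH joins a cytidine deaminase to the YTH domain, which binds RNA at N6-methyladenosine (m6A), a methyl mark on adenosines of mRNA. Cytidines close to the bound adenosine are converted to uridines, so a C-to-U site is read as a mark of a nearby m6A. Whether each listed site has an m6A beside it was not tested. Glutamate is the main excitatory transmitter of the cortex. AMPA and kainate receptors are channels assembled from Gria and Grik subunits, and AMPA receptors carry most fast excitatory current. NMDA receptors are calcium-permeable channels that combine the obligatory Grin1 subunit with Grin2 or Grin3 subunits. Metabotropic receptors, the Grm genes, signal through G proteins.

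The value of a site is its editing level, the percentage of reads at that cytidine that carry the change. The authors deposited 1 value per site for both libraries together. The depth behind it is unknown, and neither a counting interval nor a spread between libraries can be given. Every SD here is a spread across sites of 1 gene, and no test was made. A gene without a site may lack m6A, nuclear RNA or reads, and these cannot be told apart; nor can fewer nuclei of a type and less RNA per nucleus.

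The sort was for NeuN, the product of Rbfox3, and Rbfox3 had 0 sites. Of 11 neuron markers, 6 had sites, 17 in all, with a median level of 6.45%. Of 6 astrocyte markers, 4 had sites, 139 in all, with a median of 1.85%. Markers of the other cell types also had sites: 5 of 5 for oligodendrocytes (37 sites, median 1.51%), 3 of 3 for their precursors (26 sites, 2.20%), 3 of 3 for endothelium and pericytes (28 sites, 2.81%) and 2 of 3 for microglia (12 sites, 2.00%). These marker sets are short, 3 to 11 genes, so their shares do not rank the cell types. Over the whole list, the median level was 3.64%, and 28.2% of protein-coding genes had a site. The list holds no expression values, so it does not measure the share of neurons.

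Counted over 24 genes for glutamate receptor subunits, sites fell in a minority. Of these genes, 10 (41.7%) had at least 1 site, beside 28.2% of all protein-coding genes. Most of these genes are long. Of the 16 spanning 100 kb or more, 8 (50.0%) had a site, beside 50.1% of all protein-coding genes of that length. Of the 4 AMPA receptor genes 3 had sites (13 sites), of 7 NMDA receptor genes 2 (8 sites), of 5 kainate receptor genes 2 (3 sites), and of 7 metabotropic receptor genes 3 (13 sites). The delta receptor gene Grid1 had 0. Grm3, Gria2, Grin2c and Gria1 together held 29 of the 34 sites of the 10 genes. Of the 10 family genes with a site, 6 had at least 2, beside 50.8% of all genes with a site. These 6 are all among the 7 members with sites. Outside the members, Gria4, Grik2 and Grm7 had 1 site each.

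**Figure D1:**
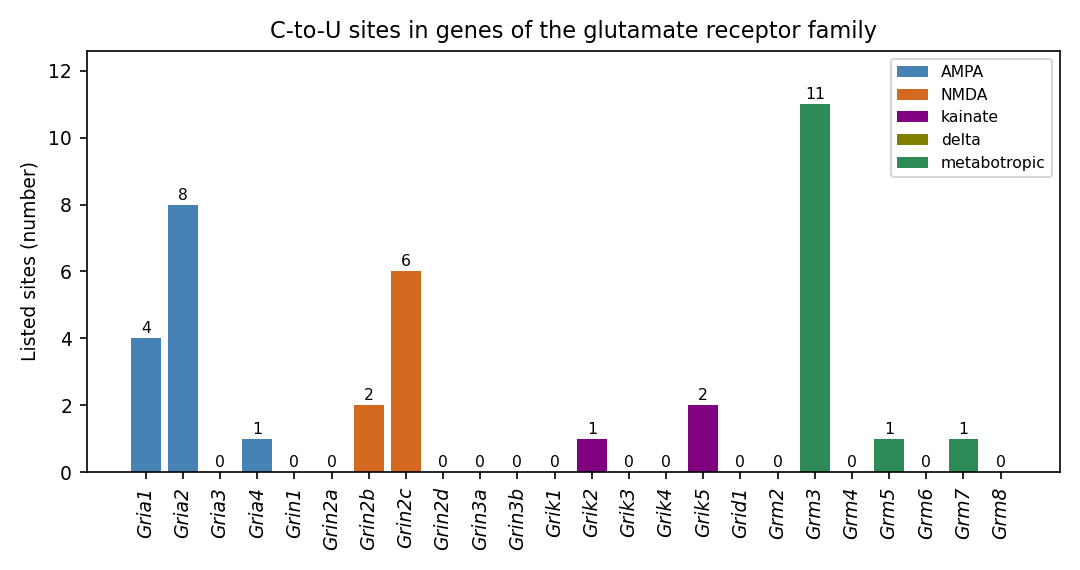
Number of listed C-to-U sites (vertical axis) in each of 24 genes of the glutamate receptor family, coloured by receptor class; each bar is 1 gene of the combined list. Grm3 (11), Gria2 (8), Grin2c (6) and Gria1 (4) stand above the others, and 14 genes have 0.

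Among the AMPA receptor genes, Gria2 had the most sites. Gria2 encodes the subunit that makes AMPA receptors largely impermeable to calcium. Its 8 sites, counted from the 5′ end, had levels of 1.55%, 6.86%, 1.54%, 1.60%, 1.31%, 1.85%, 3.85% and 8.33%, a mean of 3.36% ± 2.76 (SD across sites). Only 349 of the 6929 genes (5.04%) had 8 sites or more. The 8 sites lay on chromosome 3, minus strand, in a gene span of 80681450 to 80804227. They fell into 2 dense stretches with a pair of single sites between them. The first stretch, of 2 sites 83 bases apart, lay 1.40 kb and 1.49 kb from the 5′ end of the span. The single sites, at positions 80707189 and 80702654, lay 25.7 kb and 21.2 kb from the 3′ end. The other stretch held 4 sites within 707 bases, 6.16 to 6.87 kb from the 3′ end, and its levels were lowest at 80688318 and highest at 80687611, the site nearest to the 3′ end. High and low levels thus stood side by side: 5 of the 8 sites were below 2%, while the end-most site was higher than 80.3% of all sites in the list.

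The first Gria2 site is the only one of the 34 that falls in the part of the genome sequence at hand, and it is shown because it places the edited base. It lies at position 11 of a transcript start given by RefSeq (GRCm38.p6, chr3:80802815-80802835, minus strand). The sequence runs 5′ to 3′, with the edited C and the base before it in capitals. The stretch around a site of Gabra2, a GABA receptor subunit gene, with a level of 8.70% at base 38 of a transcript start (chr5:71095802-71095822, minus strand), is given for comparison.
Gria2: gagtcgcgcACgcgcgcccgg
Gabra2: acgccttcgCCgcctactcct
The Gria2 site follows an A. That A stands after a C and not after a purine, and the edited C stands before a G, so the stretch does not meet the usual m6A consensus at this base. The Gabra2 site follows a C. Over the whole list, 160 sites lay in such windows (250 bases before to 50 after a start), and all 160 were a C on the gene's strand. Of the 159 with a base before them in the window, 21 (13.2%) followed an A and 83 (52.2%) a G. Of all C in the first 50 bases after RefSeq starts, 17.0% follow an A and 32.3% a G. The 250 bases before a start were left out of that count, so these shares and those of the sites cover unlike regions. The Gria2 site is among the smaller part of sites in these windows that directly follow an A.

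Gria1, the other abundant AMPA receptor subunit of forebrain neurons, had 4 sites on chromosome 11, plus strand, in a span of 57011571 to 57330244. From the 5′ end the levels were 2.41%, 3.17%, 12.5% and 5.71%, a mean of 5.95% ± 4.59 (SD across sites). The first 2 sites lay 112 kb and 87.3 kb before the 3′ end, and the others 1.68 kb and 1.27 kb before it. Both sites near the end were higher than both sites within the gene, with means of 9.11% and 2.79%. The site at 57328567 was the only one of the 34 at 10% or more. Gria3 (chromosome X, 278 kb) had 0 sites although it is longer than Gria2. Gria4, which is not among the 10 genes, had 1 site of 13.3%, 0.286 kb from its 3′ end.

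**Figure D2:**
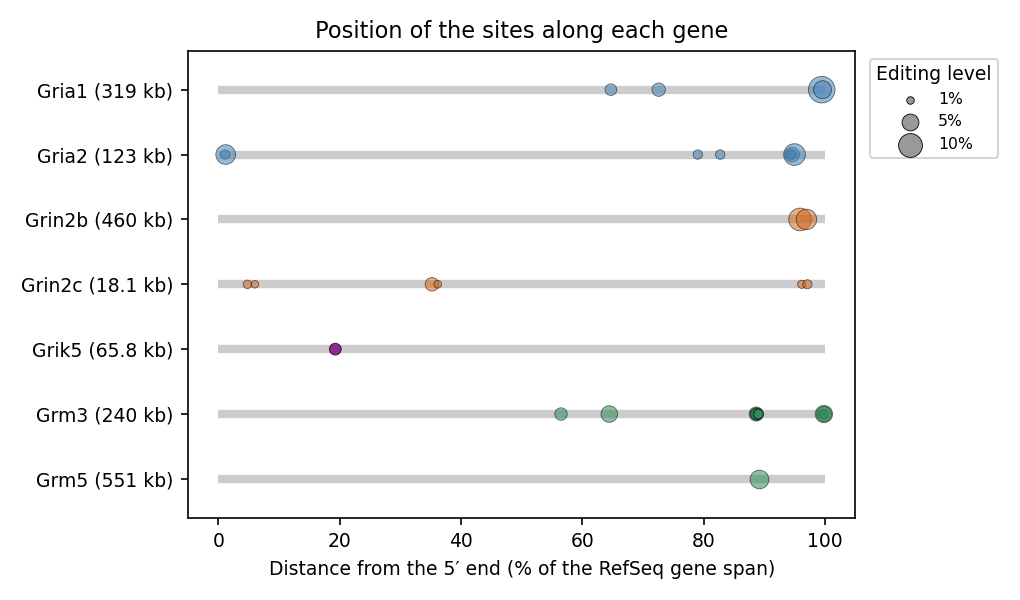
Position of each site as a percentage of the RefSeq gene span from the 5′ end (horizontal axis) in the 7 genes with sites; the area of a circle stands for the editing level. Gria1, Gria2, Grin2b and Grm3 have sites close to the right end of the span, while the Grik5 pair lies nearer to the 5′ end. Grin2c has pairs near both ends, and Gria2 also has a pair close to the 5′ end.

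The NMDA receptor genes differed from each other in the number and the level of their sites. Grin1 (chromosome 2, 28.0 kb), the obligatory subunit, had 0 sites, and Grin2a (chromosome 16, 428 kb), the Grin2 subunit that prevails in mature forebrain, had 0 as well. Grin2b, which prevails early in life and remains in adult cortex, had 2 sites on chromosome 6, minus strand. They lay at 135732167 (9.09%) and 135727246 (7.41%), 18.9 kb and 14.0 kb from the 3′ end of a span of 460 kb. Grin2c is known for cerebellar granule cells and, in cortex, for astrocytes. Its span (chromosome 11, 115249169 to 115267297) is only 18.1 kb, yet it had 6 sites, a number reached by 665 of the 6929 genes (9.60%).

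The 6 Grin2c sites came in 3 pairs. From the 5′ end the first pair had levels of 1.29% and 1.02% and lay 0.869 kb and 1.09 kb from the start of the span, 224 bases apart. The second pair, 171 bases apart and 6.39 kb from the start, had 3.29% and 1.05%. The third pair, 170 bases apart, lay 0.694 kb and 0.524 kb from the 3′ end with 1.19% and 1.48%. The mean was 1.55% ± 0.87 (SD across sites), and 5 of the 6 sites were below 2%. The highest Grin2c site was lower than the lowest Grin2b site, so the levels of these NMDA receptor genes did not overlap.

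Grik5, a kainate receptor subunit that forms channels only together with other kainate subunits, had 2 sites on chromosome 7, minus strand. They lay 5 bases apart at 25063003 (2.52%) and 25062998 (2.27%), the closest pair among the 10 genes. The pair was 12.7 kb from the 5′ end of a span of 65.8 kb and 53.2 kb from the 3′ end. Of the other kainate receptor genes, Grik2 had 1 site of 10.0%, 402 kb from its 3′ end, and Grik1, Grik3 and Grik4 had 0.

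Grm3 had more sites than any other of the 24 genes. It encodes a metabotropic receptor that lowers cyclic AMP and is known from astrocytes as well as neurons. Its 11 sites on chromosome 5, minus strand (span 9485236 to 9725352), put it among the 160 genes (2.31%) with 11 sites or more. From the 5′ end the levels were 2.76%, 4.88%, 3.57%, 2.59%, 2.50%, 1.77%, 1.72%, 1.32%, 1.87%, 5.36% and 3.85%, a mean of 2.93% ± 1.33 (SD across sites). The first 2 sites stood alone, 104 kb and 85.4 kb from the 3′ end. The next 5 lay within 974 bases, 26.2 to 27.2 kb from the end, with levels of 1.72% to 3.57%. The last 4 lay within 172 bases, 0.353 to 0.525 kb from the end, with levels of 1.32% to 5.36%. In the last stretch 2 sites, at 5.36% and 3.85%, were above every site of the stretch before it. The mean of 3.10% in the last 5 kb stood beside 2.83% in the rest of the gene, with site levels that overlapped. One further site inside the span, at 9600899 on the same strand, is listed under the name Gm42455 with 16.7% and was not counted for Grm3.

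Grm5, a metabotropic receptor that couples to phospholipase C and sits around the postsynaptic density, had 1 site in 551 kb. It lay at 88075064 on chromosome 7, plus strand, 60.0 kb from the 3′ end, with a level of 6.25%. Among the other metabotropic receptor genes, Grm7 had 1 site of 14.3%, 209 kb from its 3′ end, and Grm2, Grm4, Grm6 and Grm8 had 0.

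By mean level the genes ranked as Grin2b (8.25%), Grm5 (6.25%), Gria1 (5.95%), Gria2 (3.36%), Grm3 (2.93%), Grik5 (2.395%) and Grin2c (1.55%). The first of these means rests on 2 sites and that of Grm5 on 1. By median, Gria2 (1.725%) stood below Grm3 (2.59%) and Grik5 (2.395%). Gria1 (2.41% to 12.5%), Gria2 (1.31% to 8.33%) and Grm3 (1.32% to 5.36%) overlapped in their sites, and Grik5 lay within the range of each of those except for its lower site, which was under the lowest of Gria1. Number of sites and level did not go together in one way: Gria1, with 4 sites, held the highest site of the 10 genes, while Grin2c, with 6, had the lowest mean. Gria4, Grik2 and Grm7, with 1 site each, had the 3 highest levels of the 24 genes apart from the 12.5% site of Gria1. Few reads cannot reveal a level of 1% or 2%, and the number of reads at each site is not given.

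**Figure D3:**
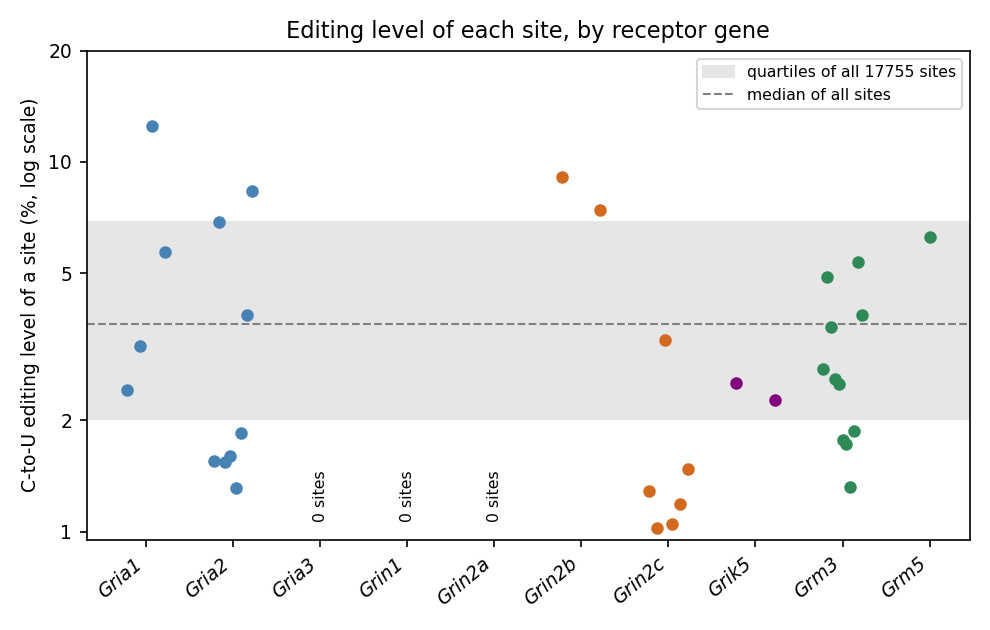
Editing level of each of the 34 sites on a log scale (vertical axis) by gene, with sites of a gene ordered from its 5′ end; the band and the dashed line are the quartiles (2.01% and 6.90%) and the median (3.64%) of all sites. Both Grin2b sites lie above the band, 5 of 6 Grin2c sites lie below it, and Gria1 and Gria2 spread widely.

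Levels of the 34 sites, counted site by site, were low beside the whole list. Their median was 2.51%, with quartiles of 1.56% and 4.62%, against 3.64% over all sites. Taking 1 mean per gene, the median was 3.36% over the 7 members with sites, beside 5% over all genes. Over the 10 family genes with sites it was 6.10%, above the value for all genes. Sites of 10% or more made up 1 of 34 (2.94%), beside 14.9% of all sites, and those of 5% or more 8 of 34 (23.5%), beside 37.2%. The share at 10% or more depends on which receptor genes are counted: over the 24 genes it was 4 of 37 (10.8%), since Gria4, Grik2 and Grm7 each had a single site at that level. Sites below 2% made up 14 of 34 (41.2%), beside 24.6%. Grm3 and Grin2c accounted for 17 of the 34, with a median of 1.87%. The 17 sites of the other genes had a median of 3.17%. Grm3 and Grin2c differed, with medians of 2.59%, above that of all 34 sites, and 1.24%. The other medians were 1.725% in Gria2, 2.395% in Grik5, 4.44% in Gria1, 6.25% in Grm5 (1 site) and 8.25% in Grin2b. The astrocyte markers had 4 of 6 members with sites at levels of 1.04% to 11.3% and a median of 1.85%, while Gfap and Aldoc had 0. Markers of oligodendrocytes (median 1.51%), microglia (2.00%) and oligodendrocyte precursors (2.20%) were at like levels. The part of any of these cell types in the Grm3 and Grin2c values was not tested.

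A smaller share of the receptor sites than of all sites lay within 5 kb of the 3′ end. Of the 34, 8 (23.5%) lay within 5 kb of it: 4 in Grm3 and 2 each in Gria1 and Grin2c. The share was 49.7% over all sites inside a matched gene span and 33.1% over sites in genes of 100 kb or more. In the 5 receptor genes of that length with sites it was 6 of 26 (23.1%). Within 1 kb of the end the shares were alike, 17.6% of the receptor sites and 16.1% of all sites. The 4 Gria2 sites just beyond 6 kb fall outside the window. RefSeq spans run to the end of the longest transcript, and which end these nuclei used was not determined. Only 1 site, in Grin2c, lay in the first 1 kb of a span (2.94%, beside 8.00% of all sites). Of the 34 sites, 12 (35.3%) had another site of their gene within 100 bases, 6 in Grm3, 4 in Gria2 and 2 in Grik5, beside 22.8% of all sites. Without Grm3 the share was 26.1%. The 22.8% includes genes with only 1 site, which can have no neighbour.

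Partners of glutamate receptors were counted in the same way, without regard to gene length. Of 37 such genes, 12 (32.4%) had sites, a share near the 28.2% of all protein-coding genes. They held 23 sites with a median of 6.90%, beside 3.64% over all sites. Of the 22 inside a span, 15 (68.2%) lay in the last 5 kb, beside 49.7% over all sites inside a span. Cacng4, an AMPA receptor auxiliary subunit, had 5 sites of 3.08% to 8.70%, all of them within 1.55 kb of its 3′ end, and so supplied 5 of those 15. Cacng7 and Cacng8 of the same family had 1 site each, of 3.64% and 8.16%. The Cacng8 site is listed under that name but lies outside the RefSeq span of the gene. Shisa9, another auxiliary subunit, had 13.3% and 9.09%, and the secreted protein gene Olfm1 had 4 sites of 1.59% to 9.52%. Of the scaffold genes, Dlg1 had 3 sites (1.71% to 8.33%), Dlg3 2 (3.39% and 4.08%), Dlg4, which encodes PSD-95, 1 (1.15%) and Dlg2 1 (11.8%). Nptx2, a pentraxin that clusters AMPA receptors, had 1 site of 18.2%, Lrrtm2 1 of 13.3% and Abhd6 1 of 4.35%.

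Of 24 genes for the inhibitory GABA and glycine receptors, 7 (29.2%) had sites, a share close to the 28.2% of all protein-coding genes. Their 19 sites had a median of 3.60%, beside 3.64% over all sites. Of these, 9 (47.4%) lay in the last 5 kb, beside 49.7% over all sites inside a span. Gabrb1 had 6 sites of 1.52% to 7.41%, 5.08 to 12.9 kb from its 3′ end. Gabbr1, a metabotropic GABA receptor subunit, had 5 of 1.27% to 3.60% within 4.98 kb of the end. Gabbr2 had 3.57% and 1.85%, Gabrg1 5% and 14.3%, and Glrb, the glycine receptor beta subunit gene, 3.08% and 16.7%. Gabra2 (8.70%) and Gabra4 (6.90%) had 1 site each. 

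**Figure D4:**
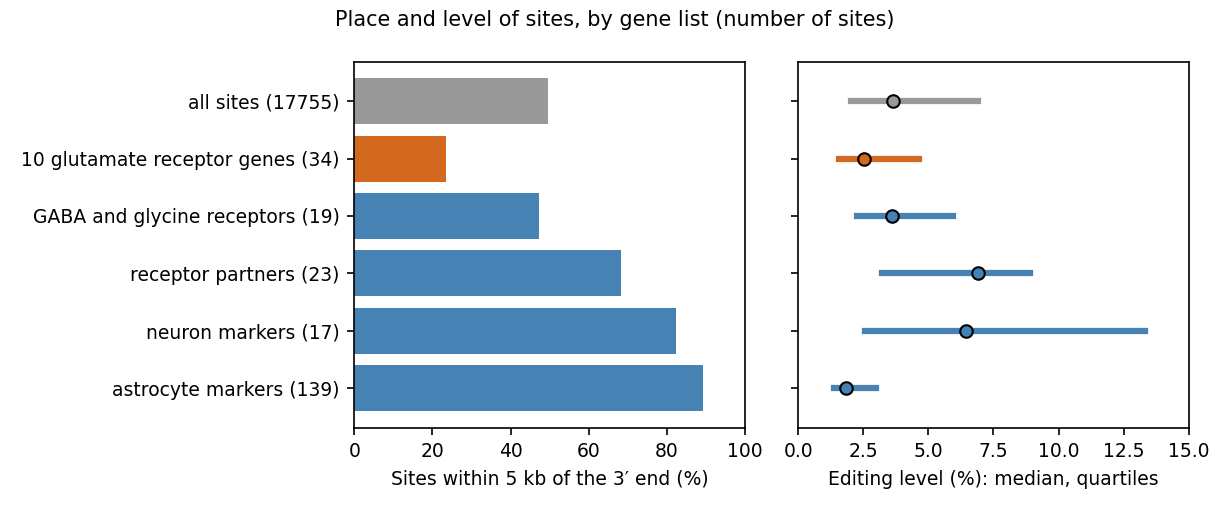
Left, percentage of sites within 5 kb of the 3′ end of the gene span, over sites inside a matched span; right, median (dot) and quartiles (line) of the editing level in percent, over all sites of each list, with the number of sites in brackets. The 10 glutamate receptor genes have the lowest share near the end (23.5%) of the lists drawn, and their median (2.51%) lies between those of astrocyte markers (1.85%) and all sites (3.64%). Markers of oligodendrocyte precursors, not drawn, have a lower share (11.5%).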

How the data were processed

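The 2 libraries of flow-sorted nuclei (1 group) were combined by the authors into 1 table of single-base sites. Sites of C-to-U conversion were called with Bullseye, per the series description, and reads were aligned with STAR 2.7.5 to build mm10, per the submitters' processing notes. How Bullseye was set, which control it used, what coverage it required and how it treated the libraries is not given in the sources used here. Deposited values are editing fractions per site, printed here as percentages; the lowest is 1%. Per the labels' protocols, libraries came from a stranded total RNA kit, while a label field names polyA RNA. The table has 0 columns of values per library.

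Names were matched by symbol to the RefSeq genes of GRCm38.p6 (mm10), which give spans but no exons or UTRs, so exonic and intronic sites were not told apart. All 10 genes matched, and 0 of their sites lay under another RefSeq gene. RefSeq promoter windows were at hand for 5 of the 10. Distances, neighbours and shares were computed with Python 3.11.15, pandas 2.3.3 and SciPy 1.17.1 and tested on simulated data. The members and lists were chosen with earlier results of these data known. Some genes of these families are not reported here and are left out of the counts. All sites of the 10 genes are named, as are other genes of the receptor and partner lists with a site. Alternatives were the minimum level, the windows, averaging per gene and leaving out Grm3 or Gria2.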

Additional observations from a re-analysis of the deposited data

How the results depend on the processing

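Of 30 recomputed values, 21 stayed within 1.5 times (counts) or inside the exact 95% binomial interval of the value reported (shares and medians), and 9 moved; 10 of them, without Grm3 or without Gria2, were added after the data had been seen and all stayed. Only these changed. The 34 sites became 20 at a minimum level of 2%, 8 at 5% and 0 at 20%. The median level became 7.14% at a minimum of 5%, which removes the low sites by construction, and 6.25% over the highest site of each gene (6.45% over all genes). The share at 10% or more, 2.94%, was 23.5% for a level of 5% and 0% for 20%. The share with a neighbour was 73.5% within 500 bases, beside 38.9% of all sites. The share of the 24 family genes with a site was 0% at 20%. Within 1 kb of the 3′ end the share of receptor sites was 17.6%, beside 16.1% of all sites, so the lower share reported for 5 kb was not seen in the shorter window. No site under 1% is listed, and the depth behind each level is unknown. No paired analysis was possible because there is 1 group and 1 combined value per site; for the same reason no library could be left out.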
